A study of Mus musculus with 26 samples.

Results

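Proteasome genes were followed in TCRTg101 across the 15 libraries of the series. The members were all protein-coding genes whose GENCODE mouse symbol begins with Psm, then a letter from a to g, then a digit. This rule gave 50 of 35865 genes. They comprised 7 genes of the 20S alpha ring, 4 non-catalytic and 3 catalytic genes of the constitutive beta ring, and the 3 immunosubunit genes Psmb8, Psmb9 and Psmb10. They also included 2 tissue-restricted 20S genes (Psma8 and Psmb11), 6 ATPase and 11 non-ATPase genes of the 19S cap, 7 assembly chaperones, and 6 activator or inhibitor genes. The last match, Psmc3ip, encodes a meiotic recombination factor and no proteasome subunit. It matches the rule and is therefore included in the counts of members, and its values are described apart.

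TCRTg101 are CD8+ T cells with a transgenic T cell receptor for a native antigen of the C1498 acute leukemia line. For the leukemia-bearing groups they were transferred into mice that received C1498 cells intravenously 1 day later. TCRTg101 were sorted by FACS from spleen or liver and sequenced as low-input RNA libraries. All mice were labelled C57BL/6, wild type and 6 weeks old. Every group consisted of TCRTg101, whose donor strain was, per the study's methods, crossed onto a Rag2-/- background.

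The control group held 3 spleen libraries, 2 of naive TCRTg101 at day 0 (controls 1 and 2) and 1 of TCRTg101 from untreated mice at day 18 (control 3). Undivided cells that had kept the CellTrace Violet dye (CTVhi) gave 1 spleen library from leukemia-bearing mice at day 18. Leukemia-bearing spleen gave 2 libraries at day 7 (early) and 1 at day 14 (mid). Leukemia-bearing liver gave 2 libraries at day 7 (early), 3 at days 13, 13 and 14 (mid), and 2 at days 18 and 16 (late). A further naive library was made with oligo-dT priming and entered no comparison. All controls came from spleen, so the liver and the leukemia cannot be told apart in comparisons of liver with control libraries. Controls 1 and 2 were labelled day 0, so they also differed from every liver library in time after transfer. The sample titles fall into a TG and an XC series, taken here as batches. Control 1, mid liver 1 and late liver 1 were TG and all other low-input libraries were XC. The late TG library was from day 18 and the late XC library from day 16, so series and day cannot be told apart within that group. Nothing in the labels says that libraries of a group came from separate animals, and p-values therefore measure the spread between these libraries only.

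The proteasome degrades proteins tagged with ubiquitin. Its barrel-shaped 20S core is built from outer alpha rings and inner beta rings, and 3 beta subunits carry the proteolytic sites: Psmb5 the chymotrypsin-like, Psmb6 the caspase-like and Psmb7 the trypsin-like site. The 19S cap recognises ubiquitinated proteins, unfolds them with a ring of ATPases and feeds them into the core. In lymphocytes and in cells exposed to interferon gamma the immunosubunits Psmb8, Psmb9 and Psmb10 take the places of Psmb5, Psmb6 and Psmb7, and the PA28 activator, made of Psme1 and Psme2, can replace the cap. These variants are known for making peptides for presentation on MHC class I.

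The windows from 250 bases before to 50 bases after the RefSeq start (GRCm38.p6) are shown for Psmb5, Psmb6 and the 3 immunosubunits, because the levels of these subunits are compared below. Psmb7 is not shown. Capitals mark matches on either strand to any of 4 motifs: CCAAT, TGACNNNGC (the core of the antioxidant response element, bound by Nfe2l1 and Nfe2l2), GAAANNGAA (part of the site bound by interferon regulatory factors) and TTCNNNGAA (bound by STAT proteins). The windows are Psmb5, chr14:54617946-54618245 on the minus strand; Psmb6, chr11:70525107-70525406 on the plus strand; Psmb8, chr17:34197945-34198244 on the plus strand; Psmb9, chr17:34187281-34187580 on the minus strand; and Psmb10, chr8:105938343-105938642 on the minus strand.
Psmb5: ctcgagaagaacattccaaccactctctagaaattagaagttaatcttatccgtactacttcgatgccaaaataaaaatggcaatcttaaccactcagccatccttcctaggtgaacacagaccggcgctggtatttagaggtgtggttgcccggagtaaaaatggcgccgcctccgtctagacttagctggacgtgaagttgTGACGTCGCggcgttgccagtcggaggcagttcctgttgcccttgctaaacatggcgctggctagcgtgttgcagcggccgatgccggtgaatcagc
Psmb6: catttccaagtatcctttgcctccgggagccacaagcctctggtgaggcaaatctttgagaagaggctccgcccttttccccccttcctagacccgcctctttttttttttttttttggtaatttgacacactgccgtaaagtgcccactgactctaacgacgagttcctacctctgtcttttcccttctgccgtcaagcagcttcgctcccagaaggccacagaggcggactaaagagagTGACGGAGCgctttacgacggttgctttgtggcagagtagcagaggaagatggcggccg
Psmb8: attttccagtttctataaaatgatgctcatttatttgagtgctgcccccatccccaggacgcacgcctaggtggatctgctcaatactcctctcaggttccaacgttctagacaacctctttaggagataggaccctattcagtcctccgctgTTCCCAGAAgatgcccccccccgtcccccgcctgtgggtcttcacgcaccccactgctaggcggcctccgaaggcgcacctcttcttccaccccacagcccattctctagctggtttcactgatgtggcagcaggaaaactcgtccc
Psmb9: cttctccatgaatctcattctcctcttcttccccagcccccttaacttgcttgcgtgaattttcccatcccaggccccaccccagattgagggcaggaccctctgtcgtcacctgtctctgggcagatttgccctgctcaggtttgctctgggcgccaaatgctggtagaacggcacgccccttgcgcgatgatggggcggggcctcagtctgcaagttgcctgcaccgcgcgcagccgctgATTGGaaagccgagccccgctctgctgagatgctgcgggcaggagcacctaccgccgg
Psmb10: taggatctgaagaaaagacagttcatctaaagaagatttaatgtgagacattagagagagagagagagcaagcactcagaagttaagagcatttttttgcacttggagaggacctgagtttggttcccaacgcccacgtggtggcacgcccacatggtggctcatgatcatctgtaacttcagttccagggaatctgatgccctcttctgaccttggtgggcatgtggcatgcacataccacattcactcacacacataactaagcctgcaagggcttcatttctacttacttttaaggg

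Psmb5 and Psmb6 each held 1 match to TGACNNNGC, which began 47 and 9 bases before the start. Psmb8 held 1 match to TTCNNNGAA, and Psmb9 held 1 match to CCAAT on the other strand. The window of Psmb10 held no match, and no matches overlapped in the windows shown. The RefSeq table had a window for 42 of the 50 members. TGACNNNGC was found in 6 of these 42 members (14.3%), against 14% of the 27025 genes in the table. CCAAT was found in 15 of 42 members (35.7%), against 41.1% of all genes, and 5 of those 15 were among the 7 alpha ring genes (Psma1, Psma2, Psma3, Psma6 and Psma7). GAAANNGAA was found in 7 of 42 members (16.7%) against 9.76% of genes, and TTCNNNGAA in 3 of 42 members (7.14%) against 9.55%. These are descriptions of the letters in the windows. In the mouse genome Psmb9 and Psmb8 lie 9956 bases apart on chromosome 17, with the peptide transporter gene Tap1 between them and Tap2 beyond Psmb8. The annotated spans of Psmb9 and Tap1 overlap by 212 bases on opposite strands.

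Depth, as the total of estimated counts over all transcripts, ran from 22918996 in early spleen 2 to 71358287 in mid liver 1 over the 14 low-input libraries. Markers of CD8 T cells were abundant in every library, with a summed level of 4188 to 9404 CPM (counts scaled to a common library size) over 8 genes and Cd8b1 the most abundant. Several libraries stood apart in markers of other cells. Erythroid markers (6 genes, Hba-a2 the most abundant) summed to 5236 and 20352 CPM in controls 1 and 2, to 136 CPM in control 3 and to at most 215 CPM in every other library. Macrophage and monocyte markers (10 genes, C1qb the most abundant) summed to 1025 CPM in control 1, 152 CPM in control 2 and 10.7 CPM in control 3. Class II and dendritic cell markers (7 genes, Cd74 the most abundant) summed to 1817 and 1614 CPM in controls 1 and 2 and to 34.7 CPM in control 3. Hepatocyte markers (9 of 10 genes in the files, Alb the most abundant) summed to at most 0.3 CPM in the controls. They reached 210, 21.7 and 3.4 CPM in the mid liver libraries and 356 and 72.8 CPM in the late liver libraries. No gene of these marker lists was at 3 counts or fewer in every library. The part of these markers in the proteasome results was not tested.

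Cell cycle markers, a list of 10 genes that mark dividing cells, were also uneven. They summed to between 291 and 361 CPM in the controls, to 1294 CPM in early liver 1 but 279 CPM in early liver 2, and to between 1387 and 3386 CPM in the mid and late liver libraries. Early liver 2 thus lay at the control level and early liver 1 did not. The proteasome genes followed the same division between these libraries, and the results for the early liver group are therefore given with each library.

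Between genes, levels were compared as TPM, which are scaled by transcript length. In the controls Psme1 had the highest mean level of the members at 560.8 TPM, followed by Psmb8 at 480 TPM and Psme2 at 415 TPM. Psmb10 had 290.4 TPM and Psmb9 184 TPM. Control TCRTg101 therefore carried more transcript of 2 immunosubunits than of their partners, since Psmb5 had 134 TPM and Psmb7 57.4 TPM. In the third pair Psmb6 had 205 TPM, more than Psmb9 on average, but the order differed between the controls. At the other end stood Psma8, a testis form of an alpha subunit, at 0.2 TPM, and Psmb11, the thymus form of the beta5 subunit, at 0.4 TPM. Summed over the 7 genes, the alpha ring went from 944 ± 109 TPM (SD, n = 3) in the controls to 1681 ± 338 TPM (SD, n = 3) in mid liver and 1693 ± 258 TPM (SD, n = 2) in late liver libraries, without overlap. The 3 constitutive catalytic genes had 397 ± 102 TPM in the controls, 888 ± 484 TPM in mid liver and 934 ± 397 TPM in late liver libraries. The immunosubunits had 954 ± 242, 1149 ± 75.2 and 1441 ± 12.0 TPM in the same groups. These sums were not tested.

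Most members were above the control mean in every mid and late liver library. The median member lay 1.40, 0.52 and 0.78 log2 units above the control mean in the 3 mid liver libraries, and 1.53 and 0.71 in the 2 late liver libraries. In all 5 of these libraries at least 43 of the 49 members tested were above the control mean, against 47.7% to 50.5% of all genes. The median over all genes tested stayed between -0.07 and 0.04 in every library. Early liver 1 had a member median of 0.65 with 43 of 49 members above the control mean (48.2% of all genes), whereas early liver 2 had -0.21 with 6 of 49 (50.0% of all genes). The 3 controls themselves had member medians of 0.22, -0.12 and -0.08, and control 1 was the highest.

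**Figure D1:**
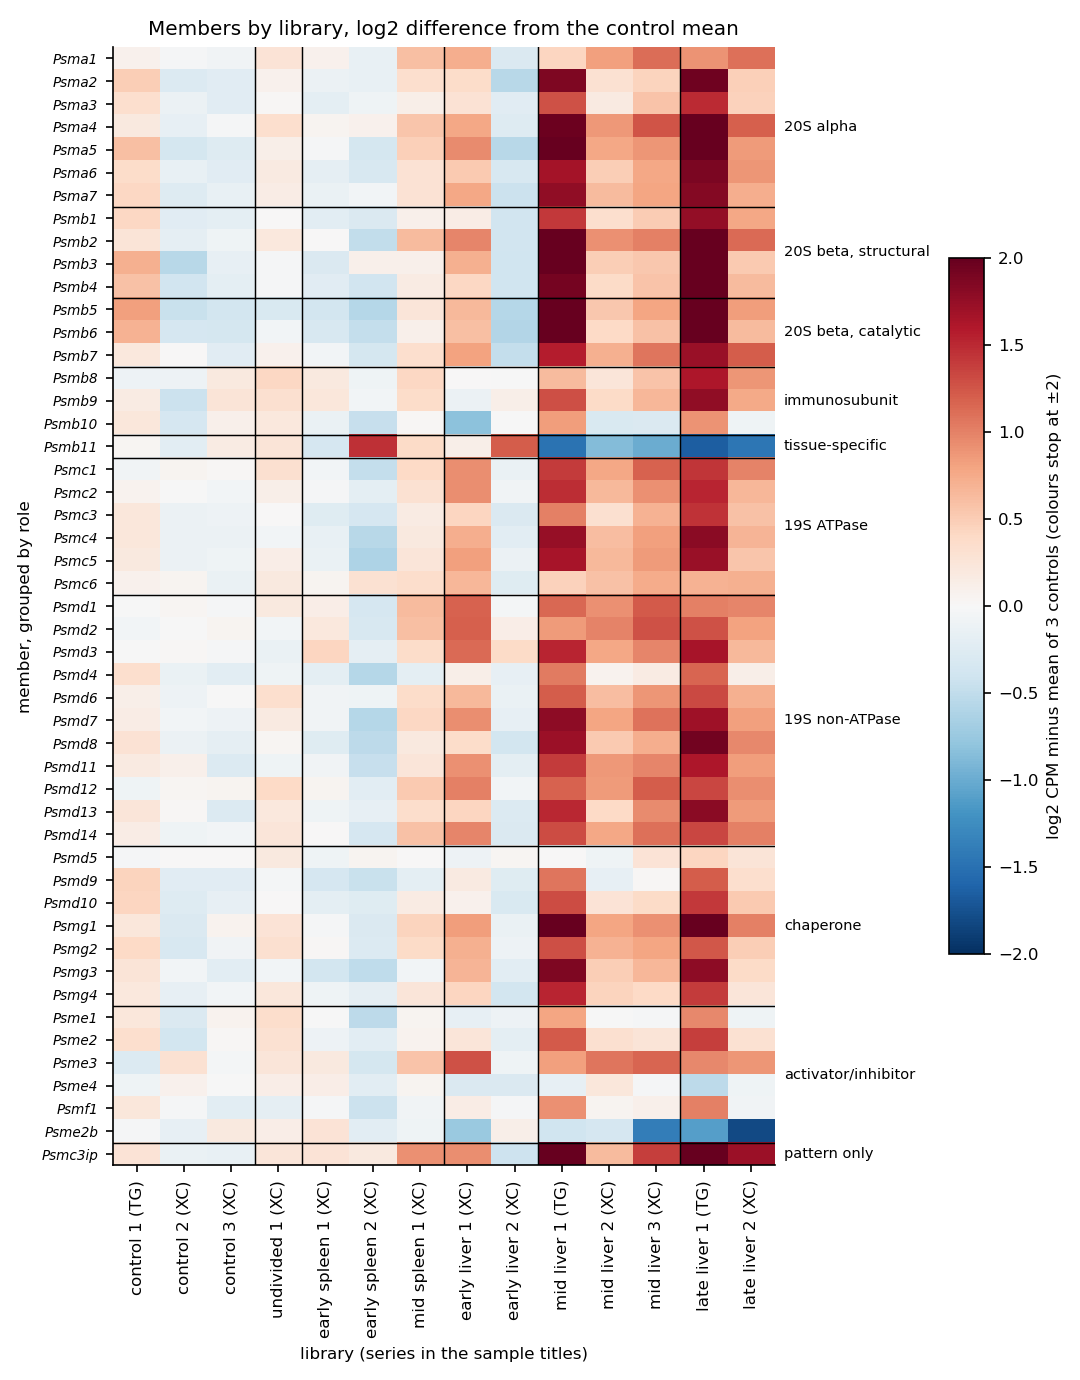
Log2 CPM of 49 members (48 proteasome genes and Psmc3ip) in 14 low-input libraries minus the mean of the 3 control libraries (colour, stopping at 2 log2 units either way), with genes in rows grouped by role and libraries in columns with their series. The mid and late liver columns are red for most genes, deepest in the TG libraries, while Psmb11 and Psme2b are blue there and early liver 2 resembles the controls.

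**Figure D2:**
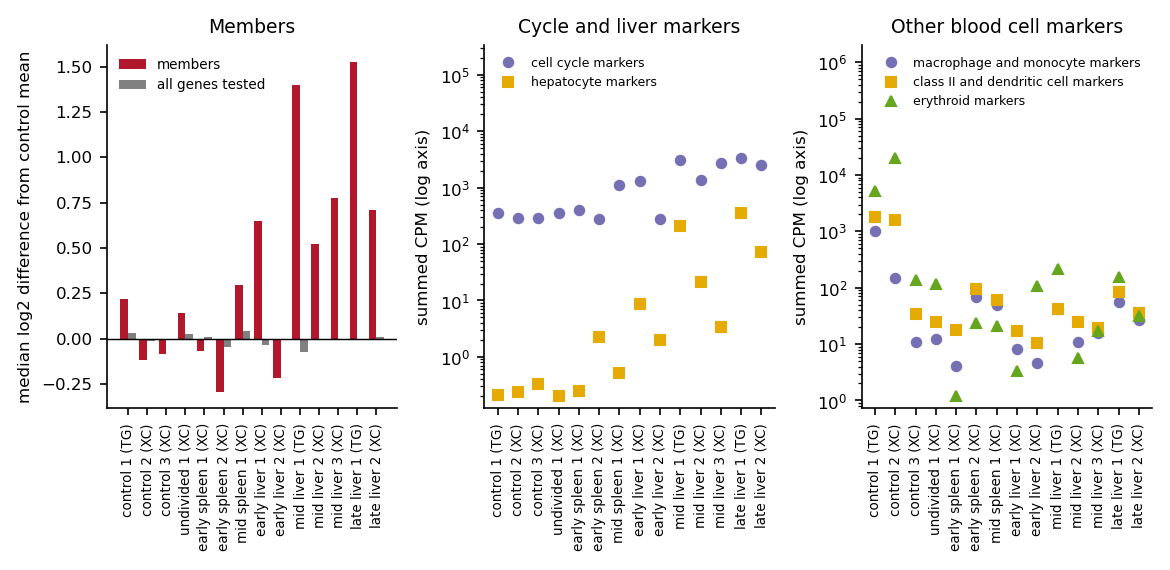
Left, median log2 difference from the control mean for the 49 members (red bars) and all 14600 genes tested (grey bars) in each library. Centre and right, summed CPM of cell cycle, hepatocyte, macrophage, class II and erythroid marker lists on log axes, 1 point per library, where the erythroid points of controls 1 and 2 and the hepatocyte points of mid liver 1 and late liver 1 stand highest.

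In late liver compared with control TCRTg101, 36 of the 49 members rose and 2 fell (edgeR, adjusted p under 0.05), where 19.8% of all genes tested rose and 17.7% fell. In mid liver, 33 of 49 members rose and none fell, where 17.3% of all genes rose and 13.9% fell. Without Psmc3ip, 35 of 48 rose in late and 32 of 48 in mid liver. In these bulk libraries a change in the RNA per cell and a change in which cells were sorted cannot be told apart. The median log2 fold change of the members was 0.96 in mid liver and 1.04 in late liver, against -0.06 and -0.03 over all genes. Every late liver library exceeded every control for 37 members (28.7% of all genes) and lay below for 3 (27.7%). Every mid liver library exceeded every control for 31 members (21.8% of all genes) and lay below for 2 (20.9%). The counts of calls depended on the series term and on single libraries. Without the series term 13 members were called in late and 0 in mid liver, and with library totals in place of TMM factors 20 were called in late liver. The late count fell to 0 without control 1, late liver 1 or late liver 2 and to 16 without control 2. The mid count fell to 0 without control 1, control 2, mid liver 1 or mid liver 3. Without control 3 it fell to 12, where 2332 genes of all were called. Where leaving out a library left no member called in mid or late liver, at most 19 genes of all were called. The mid liver fit without the series term called 1385 genes of all. In the fits that left out a library, the member median stayed between 0.78 and 1.05 in mid liver and between 0.84 and 1.24 in late liver. With library totals in place of TMM factors the late member median was 0.74.

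Mid and late liver did not differ detectably. No member passed between them in edgeR, where 1 of 49 had an unadjusted p under 0.05 (2.64% of all genes were higher at that level) and the member median difference was 0.08. That member was Psmb8, which was 0.74 ± 0.24 (SE) log2 units higher in late liver, with every late library above every mid library and an adjusted p of 0.91. No other tool was run for this comparison. Mid and late liver compared with early liver gave no call in edgeR either (0.0% of all genes), with 3 and 10 of 49 members higher at an unadjusted p under 0.05 (7.59% of all genes in the mid and 13.5% in the late comparison).

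**Figure D3:**
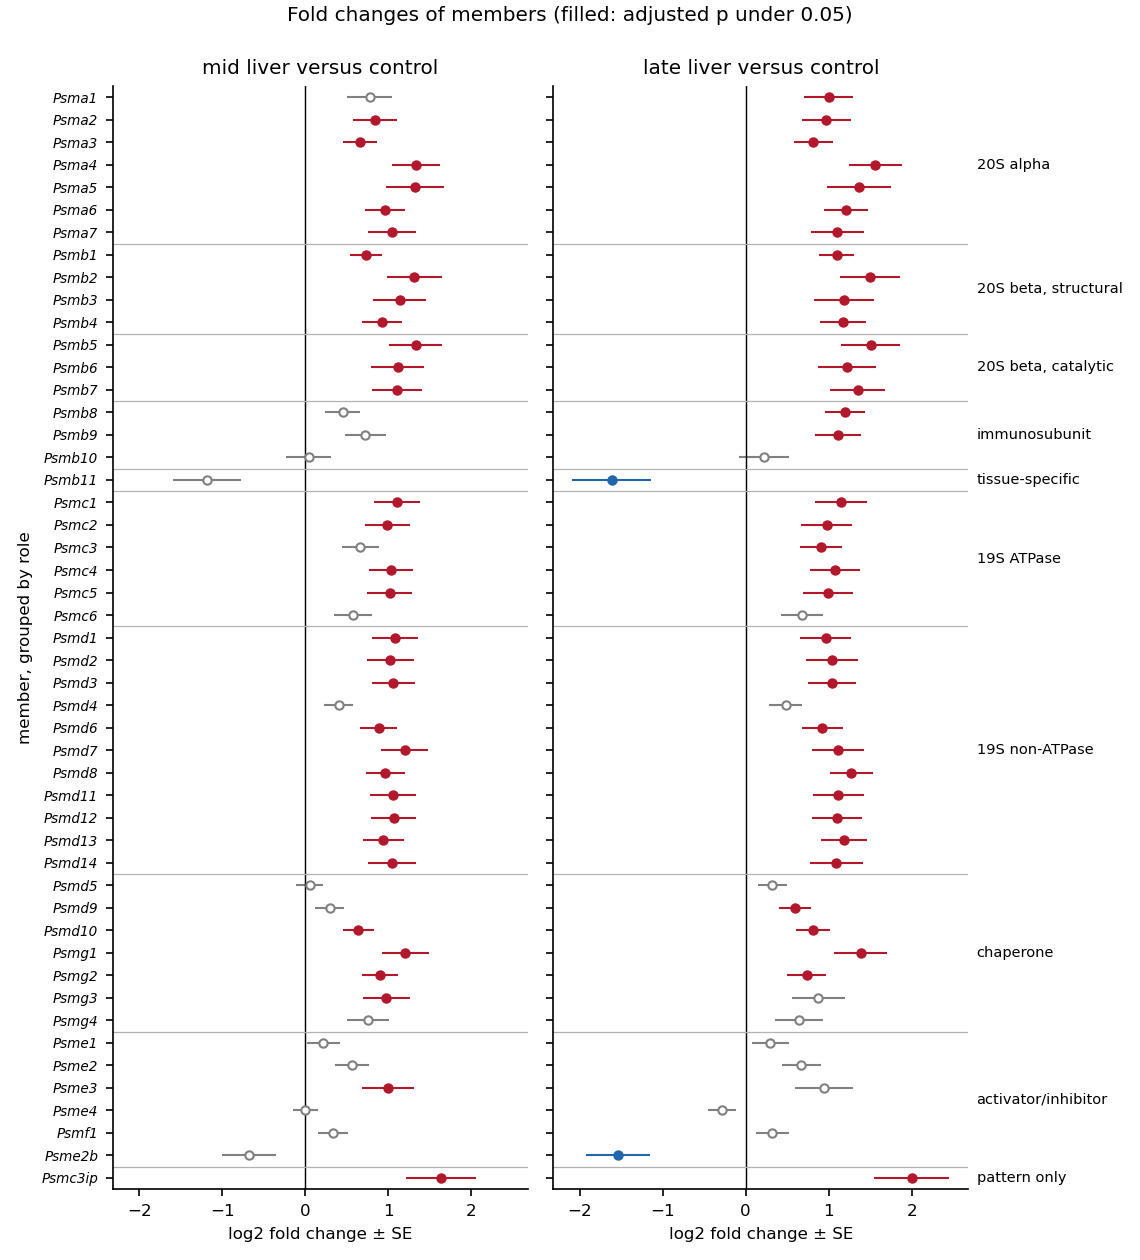
Log2 fold change with its standard error for the 49 members in mid liver (left) and late liver (right) versus control, with filled points for genes with an adjusted p under 0.05. Points of the 20S and 19S genes cluster near 1 in both panels, while Psmb10, Psmd5 and Psme4 lie near 0 and Psmb11 and Psme2b lie below it.

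All 7 alpha ring genes rose in late liver, by 0.82 (Psma3) to 1.56 (Psma4) on the log2 scale, and 6 of 7 rose in mid liver. The exception was Psma1 with a log2 fold change of 0.78 and an adjusted p of 0.0554. Psma4 encodes the alpha3 subunit at the gate of the core, and had 115, 89.5 and 98.8 CPM in the controls. It had 390, 183 and 240 CPM in the mid liver and 472 and 230 CPM in the late liver libraries. The 2 sets did not overlap, and Psma4 had the largest late fold change among true proteasome genes (1.56 ± 0.32, SE; adjusted p = 0.0126). Psma3 and Psma5 share sequence with pseudogenes (19.69% and 58.68% of their 31-base words). Gm13835, the copy of Psma3, held counts equal to 19.8% of those of Psma3, so the counts of Psma3 carry an added uncertainty. Psma4 shares 21.8% of its words with Gm6542, which held counts equal to 0.44% of those of Psma4.

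The 4 non-catalytic beta genes, Psmb1 to Psmb4, all rose at both time points. Psmb2 encodes the beta4 subunit and had 146, 107 and 115 CPM in the controls. It reached 524, 231 and 245 CPM in mid liver and 569 and 268 CPM in late liver libraries, without overlap. Its late log2 fold change was 1.50 ± 0.36 (adjusted p = 0.0173). Psmb3 differed widely between series, with 1004 CPM in mid liver 1 against 245 and 256 CPM in the XC mid liver libraries. Control 1 had 287 CPM of Psmb3, above both XC mid liver libraries.

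The constitutive catalytic genes rose together. Psmb5 had 204, 85.6 and 89.5 CPM in the controls and 182 and 78.4 CPM in the early liver libraries. It had 781, 169 and 200 CPM in mid liver and 831 and 208 CPM in late liver libraries. Late liver libraries lay above all controls, but the XC mid liver libraries lay below control 1. The log2 fold change was 1.33 ± 0.32 in mid liver (adjusted p = 0.0235) and 1.51 ± 0.35 in late liver (adjusted p = 0.0162). A pseudogene of Psmb5, Gm3375, shares 65.66% of its 31-base words but held counts equal to only 0.063% of those of Psmb5. Psmb6 had 257, 126 and 125 CPM in the controls, 865, 211 and 239 CPM in mid liver and 860 and 248 CPM in late liver libraries. Here control 1 exceeded every XC liver library, and the rise (1.23 ± 0.35 in late liver, adjusted p = 0.0272) rests on the comparison within each series. Psmb7 varied less. It had 79.5, 68.5 and 58.8 CPM in the controls, 203, 112 and 144 CPM in mid liver and 225 and 158 CPM in late liver libraries, without overlap, and a late log2 fold change of 1.35 ± 0.33 (adjusted p = 0.0178).

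Of the 3 immunosubunits, 2 passed the test as higher in late liver and none in mid liver. Psmb8 was the most abundant, with 435, 435 and 532 CPM in the controls and 619 CPM in the undivided library. It had 719, 548 and 694 CPM in mid liver and 1423 and 861 CPM in late liver libraries. All liver libraries from the mid time point on were above all controls in CPM, though not in TPM, where mid liver 1 and 2 lay below control 3, with log2 fold changes of 0.45 ± 0.21 in mid liver (adjusted p = 0.126) and 1.20 ± 0.24 in late liver (adjusted p = 0.0126). Psmb9 had 217, 144 and 233 CPM in the controls, 473, 252 and 307 CPM in mid liver and 665 and 328 CPM in late liver libraries. It also showed no overlap with the controls, and its late log2 fold change was 1.11 ± 0.28 (adjusted p = 0.0187) after 0.72 ± 0.25 in mid liver (adjusted p = 0.0518). Psmb10 overlapped with the controls throughout. It had 270, 183 and 248 CPM in the controls, 410, 188 and 188 CPM in mid liver, and 431 and 217 CPM in late liver libraries. Its late log2 fold change was 0.23 ± 0.30 (adjusted p = 0.568), and its sign turned to -0.058 when library totals were used without TMM factors. Early liver 1 had the lowest Psmb10 level of any library, 130 CPM, while early liver 2 had 229 CPM.

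Within each pair the ratio of immunosubunit to constitutive transcript was taken per library as log2 TPM and compared between 3 control and 5 mid and late liver libraries by an exact two-sided permutation test over 56 arrangements. Psmb10 to Psmb7 was 2.40, 1.94 and 2.62 in the controls. It was 1.66, 1.29 and 0.90 in mid liver and 1.54 and 0.98 in late liver libraries. The 2 sets did not overlap, and the mean fell by 1.04 log2 units (exact p = 0.0179, the smallest this design allows; 0.0536 after adjustment over the 3 ratios). Early liver 1 had 0.72 and early liver 2 had 2.76, so the latter again lay with the controls. The ratio of Psmb8 to Psmb5 was 0.82, 2.21 and 2.49 in the controls, -0.42, 1.61 and 1.70 in mid liver and 0.62 and 1.96 in late liver libraries. It divided by series more than by group, since control 1 lay below every XC liver library. Within the TG series it went from 0.82 to -0.42 and 0.62, and within the XC series from 2.21 and 2.49 to between 1.61 and 1.96. Over all libraries, without regard to series, the difference was -0.75 (exact permutation p = 0.357, adjusted 0.5). With libraries rearranged only within their series it was -0.64 (exact permutation over 30 arrangements, p = 0.0667, adjusted 0.1). The same test gave -1.07 for Psmb10 to Psmb7 (exact permutation p = 0.0333, the smallest it allows; adjusted 0.1). Psmb9 to Psmb6 differed by -0.29 (exact permutation p = 0.5, adjusted 0.5), from -0.62, -0.26 and 0.39 in the controls to between -1.27 and 0.04 in the liver libraries. With libraries rearranged only within their series this difference was -0.23 (exact permutation p = 0.367, adjusted 0.367).

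**Figure D4:**
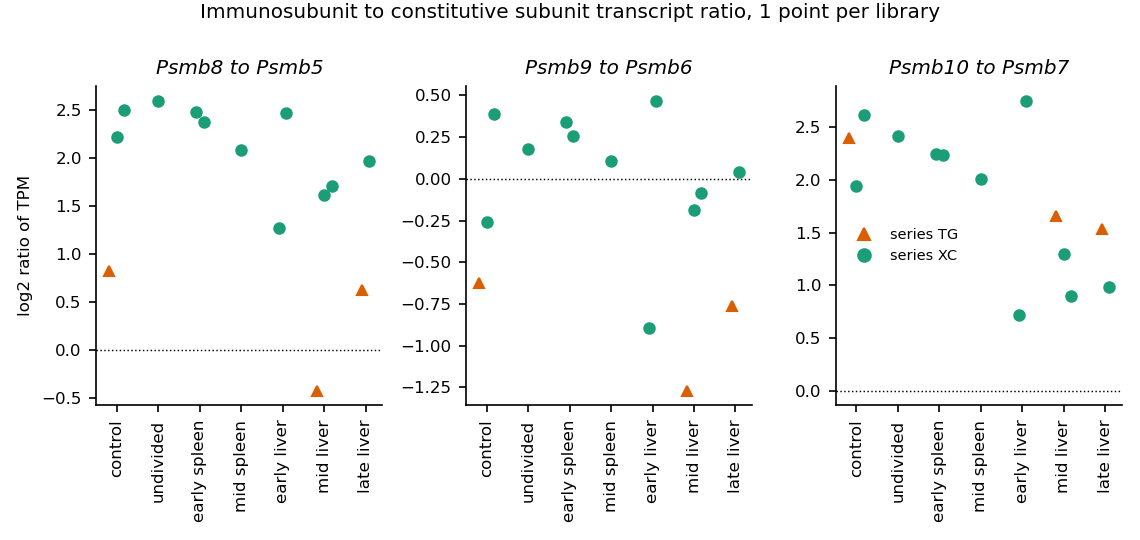
Log2 ratio of TPM for the 3 pairs of immunosubunit and constitutive subunit, 1 point per library, with triangles for the TG and circles for the XC series. The ratio of Psmb10 to Psmb7 is lower in the 5 mid and late liver libraries than in the 3 controls, while for Psmb8 to Psmb5 the 3 TG libraries lie below all XC libraries.

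Of the 6 ATPases of the 19S cap, which unfold substrates, 5 rose in late liver, by 0.90 (Psmc3) to 1.15 (Psmc1) on the log2 scale. Psmc6 was at 0.68 ± 0.26 with an adjusted p of 0.0627. It had 64.9, 63.5 and 56.1 CPM in the controls and 84.8 to 103 CPM in the mid and late liver libraries, without overlap in CPM, whereas in TPM both TG liver libraries lay below every control. In mid liver 4 of 6 rose. The non-ATPase subunits of the cap include ubiquitin receptors, scaffolds and the deubiquitinase Psmd14, and 10 of these 11 rose at both time points. Psmd14 had 105, 89.3 and 91.4 CPM in the controls and 162 to 239 CPM in the mid and late liver libraries. Psmd2, a large scaffold subunit, had 203, 209 and 219 CPM in the controls and 369 to 510 CPM in these liver libraries. Both were separated from the controls in every mid and late liver library. Psmd4, a ubiquitin receptor, was the exception in both comparisons. It had 216, 158 and 149 CPM in the controls, 354, 180 and 194 CPM in mid liver and 387 and 187 CPM in late liver libraries (log2 fold change 0.49 ± 0.20 in late liver, adjusted p = 0.0813).

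Assembly chaperones were mixed, with 4 of 7 higher in late liver and 4 of 7 in mid liver. Psmg1, which helps to build the alpha ring, had 29.8, 21.0 and 26.8 CPM in the controls, 105, 44.1 and 48.3 CPM in mid liver and 113 and 51.3 CPM in late liver libraries. The sets did not overlap, and the late log2 fold change was 1.39 ± 0.32 (adjusted p = 0.0154). Psmd5, a chaperone of the cap's base, was nearly level at 84.3, 86.2 and 86.2 CPM in the controls, 86.0, 80.8 and 103 CPM in mid liver, and 115 and 102 CPM in late liver libraries (late log2 fold change 0.32 ± 0.18, adjusted p = 0.172). Psmg3 and Psmg4 were at 0.88 and 0.64 in late liver with adjusted p-values of 0.0563 and 0.104.

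None of the 6 activator and inhibitor genes passed as higher in late liver and 1 fell, where 19.8% of all genes rose and 17.7% fell. Psme1 and Psme2 encode the PA28 activator and lie on chromosome 14, 5911 bases apart. Psme1 had 459, 323 and 413 CPM in the controls, 678, 393 and 389 CPM in mid liver and 769 and 372 CPM in late liver libraries, and the groups overlapped (late log2 fold change 0.30 ± 0.22, adjusted p = 0.308). This fold change was 0.07 without control 1 and 0.57 without late liver 2. Psme2 had 406, 251 and 329 CPM in the controls, 752, 402 and 386 CPM in mid liver and 841 and 397 CPM in late liver libraries. It stood at the threshold, with a late log2 fold change of 0.67 ± 0.23 and an adjusted p of 0.0505, and passed in 6 of 18 other settings. Psme3, which encodes the nuclear PA28 gamma activator, passed in mid liver (0.99 ± 0.31, adjusted p = 0.0425) and was at 0.94 ± 0.35 in late liver (adjusted p = 0.0599), a difference between them of -0.05 ± 0.35 that did not pass. Psme4, the PA200 activator, had 44.0, 49.4 and 46.6 CPM in the controls and 32.5 and 43.9 CPM in late liver libraries. Both late values were below all controls, but the change was not called (-0.28 ± 0.17, adjusted p = 0.211).

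In late liver Psmb11 and Psme2b fell. Psmb11 had 139, 89 and 70 counts in the controls and 28 and 25 counts in the late liver libraries, or 2.08, 1.74 and 2.27 CPM against 0.61 and 0.71 CPM (-1.61 ± 0.48, adjusted p = 0.0297). The Psmb11 call was lost in 8 of 18 other settings, among them day 0 controls only (edgeR adjusted p = 0.0565), the first run of each library only (adjusted p = 0.0631) and all 14 low-input libraries (adjusted p = 0.0715). It was highest in early spleen 2 and early liver 2, at 5.67 and 4.73 CPM. Psmb11 lies 3410 bases from Psmb5, on the opposite strand. Psme2b is a copy of Psme2 that shares 78.44% of its 31-base words with it, so kallisto may have divided reads between them. It had 55.1, 50.0 and 64.5 CPM in the controls and 26.1 and 16.1 CPM in late liver libraries (-1.53 ± 0.39, adjusted p = 0.0199). Psmc3ip, which is no proteasome gene, had the largest late fold change of all matches (2.00 ± 0.45, adjusted p = 0.0151). It had 6.49, 4.87 and 4.81 CPM in the controls and 36.2 and 17.5 CPM in late liver libraries. Psmc3ip shares 19.01% of its 31-base words with Mlx, and Mlx held counts equal to 603% of those of Psmc3ip. The counts of Psmc3ip therefore carry an added uncertainty. Psma8 was the one member below the count filter of the liver comparisons, with 3 to 18 counts per library.

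At the early time point no member passed in liver compared with control (edgeR, 0.0% of all genes; 2 of 49 had an unadjusted p under 0.05 and a positive change, against 7.29% of all genes). DESeq2 likewise called none of the 49 members and 350 genes in all. The fold change was positive for 45 of 49 members (49.0% of all genes) with a median of 0.47, and for 35 of 49 with a median of 0.26 without the series term. The group was divided, and without early liver 2 the count was 24 of 49 (12.9% of all genes) with a median of 0.82, whereas without early liver 1 it was 0 with a median of -0.01. In these fits the lone early liver library is assumed to vary like the other groups. Psmd3, a subunit of the cap's lid, lay above every control in both early liver libraries, with 140, 144 and 140 CPM in the controls, 310 CPM in early liver 1 and 185 CPM in early liver 2. It had the largest early fold change of the members (0.95 ± 0.29, adjusted p = 0.455).

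In undivided TCRTg101 no member passed against the controls (edgeR, 0.0% of all genes, and none with an unadjusted p under 0.05; no other tool was run), and the 1 library is assumed to vary like the other groups. The median log2 fold change was 0.34 with 48 of 49 members positive (48.5% of all genes), and 18 of 49 lay above every control (22.0% of all genes). Without adjustment for series the median difference from the control mean was 0.14, with 37 of 49 members above it (53.7% of all genes). Psmb8 and Psme1 were among these, at 619 and 503 CPM. Late liver compared with this library gave no call either (0.0% of all genes), with 7 of 49 members higher and 2 lower at an unadjusted p under 0.05 (13.3% and 12.6% of all genes) and a median of 0.73. The fold change was positive for 44 of 49 members (50.6% of all genes), and both late libraries lay above the undivided one for 43 (39.6% of all genes). Psmb5 was 1.26 ± 0.52 higher in late liver in that comparison (adjusted p = 0.173).

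In spleen of leukemia-bearing mice no member passed at day 7 (edgeR and DESeq2, 0.0% of all genes in edgeR; none with an unadjusted p under 0.05, against 5.48% of all genes higher at that level), and 29 of 50 members had a positive fold change (51.0% of all genes) with a median of 0.05. This split had no stable direction, with 9 of 50 positive without the series term, 16 without control 1 and 44 without early spleen 2. At day 14 the single library gave no call among members in edgeR (0.00647% of all genes fell; 1 member had an unadjusted p under 0.05; no other tool was run). There 49 of 50 members were positive (51.1% of all genes), with a median of 0.49 (0.30 from the control mean without adjustment for series), and 25 of 50 lay above every control (28.6% of all genes). Cell cycle markers summed to 1105 CPM in this library, above the 291 to 361 CPM of the controls, and their part was not tested. Psmb2 had 189 CPM in that library and Psmb7 86.1 CPM, both above the controls and below every mid liver library. Early liver compared with early spleen gave no member call in edgeR (0.0% of all genes) or in DESeq2, which called 56 genes in all. In edgeR 6 members were higher at an unadjusted p under 0.05 (3.42% of all genes), and the member median was 0.39. Without early liver 2, 15 of 50 members passed (6.22% of all genes), with the lone early liver library assumed to vary like the other groups. The median was -0.01 without early liver 1. Mid liver against the mid spleen library gave a median of 0.40 and no member called (0.00647% of all genes were higher; 0 members with an unadjusted p under 0.05; no other tool was run).

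The size of the liver change differed between the series. Against the control of its own series, the member median was 1.22 in the TG and 0.82 in the XC mid liver libraries, and 1.43 and 0.80 in the late liver libraries. The direction was shared, with 45 of 49 members positive in both series in mid liver (39.4% of all genes) and 46 of 49 in late liver (41.7% of all genes). The TG difference was larger for 42 of 49 members in mid liver and 45 of 49 in late liver. That share was not computed over all genes. Their medians in the TG and XC series were -0.07 and -0.01 in mid liver and 0.004 and 0.002 in late liver. Shorter genes differed more between the series, with a correlation of -0.53 (Pearson) and -0.48 (Spearman) in mid liver and -0.48 and -0.39 in late liver with log2 length over 49 genes, which share the same libraries. The XC libraries alone gave no member called in either comparison (edgeR), with medians of 0.80 and 0.78.

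Among 10 proteasome partners outside the symbol pattern, 9 were tested, 5 rose in mid liver and 4 in late liver, and none fell, where 17.3% and 19.8% of all genes rose. The lists that follow are to be read against the 19.8% of all genes that rose and the 17.7% that fell in late liver. Pomp, the maturation factor of the 20S core, rose by 1.20 ± 0.30 in late liver (adjusted p = 0.0195), while the ubiquitin receptor Adrm1 was at 0.59 ± 0.29 (adjusted p = 0.134). Of 10 shuttle factors and p97 genes, 1 rose and 1 fell in late liver: Vcp, the p97 unfoldase, by 0.88 ± 0.30 (adjusted p = 0.0439) and Zfand2a, which is induced by arsenite, by -1.14 ± 0.37 (adjusted p = 0.0391). Ubqln1 was at 0.37 ± 0.21 (adjusted p = 0.176).

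None of the 6 regulators of proteasome genes passed as higher in late liver, and 2 fell. Nfe2l1, which drives proteasome gene transcription when proteasomes are inhibited, was at 0.05 ± 0.20 in late liver (adjusted p = 0.87), and Stat3 was at 0.40 ± 0.23 (adjusted p = 0.19). Nfe2l2 fell by 1.18 on the log2 scale (SE 0.31, adjusted p = 0.0207). Foxo4 was the other that fell, at the threshold and at a low level (-1.38 ± 0.48, edgeR adjusted p = 0.0499). It had 6.64, 3.67 and 3.54 CPM in the controls and 2.11 and 1.70 CPM in late liver libraries. In the MHC class I pathway 1 of 10 genes changed in late liver, and it fell (17.7% of all genes fell): Irf1, an interferon-responsive factor, at -1.59 ± 0.35 (adjusted p = 0.0145). H2-D1 and H2-K1, the class I heavy chains, were at 0.03 ± 0.18 (adjusted p = 0.907) and -0.06 ± 0.23 (adjusted p = 0.84), and Tap1, the neighbour of Psmb9, was at 0.34 ± 0.20 (adjusted p = 0.198). All 10 cell cycle genes rose at both time points, Mcm2 by 2.39 ± 0.50 and Mcm5 by 3.16 ± 0.62 in late liver (adjusted p = 0.0140 and 0.0128). Their part in the proteasome result was not tested. Of 8 CD8 T cell markers 3 rose in late liver and none fell. Zap70 rose by 1.41 ± 0.25, Cd3g by 0.67 ± 0.22 and Cd3e by 0.64 ± 0.18 (edgeR adjusted p = 0.0105, 0.0415 and 0.0266). Cd8b1 and Lck were at -0.55 ± 0.31 and -0.21 ± 0.20 (adjusted p = 0.185 and 0.439). Among markers of other cells, 5 of 5 hepatocyte genes tested rose in late liver, and 3 of 6 macrophage, 4 of 5 class II, 1 of 5 erythroid and 1 of 2 immature myeloid genes fell. None of 5 B cell or 2 endothelial genes tested passed there.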

How the data were processed

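Low-input RNA-seq of sorted TCRTg101 was sequenced by the authors in 2 batches and quantified with kallisto (version not given in the sources used here). The files deposited by the authors list, for each transcript, an estimated count, an effective length and the TPM. Counts were summed per gene over GENCODE vM21 (GRCm38), which matched 98.18% of 118783 transcripts, and over the runs of a library (26 runs, 15 libraries), then rounded. Kallisto divides reads among similar transcripts, so genes with near copies carry an error the tests do not include.

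Genes that reached 10 counts in 6 or more libraries were tested with edgeR 4.0.16 (quasi-likelihood, robust, TMM, two-sided, R 4.3.3), with group and series as terms: 11 libraries and 14600 genes for liver and undivided comparisons, 14 libraries and 15449 genes where spleen entered. P-values were adjusted by Benjamini-Hochberg over all genes tested, with a threshold of 0.05. A fold change is a log2 value with its standard error. CPM were scaled by TMM factors over the 14 libraries, and TPM were recomputed from summed counts and effective lengths. DESeq2 1.42.0 and other scalings, filters, run choices and left-out libraries served as alternatives. The code was tested on simulated data with the same group sizes but far fewer changed genes than were called here. Changes of the size seen in most members were rarely called there, and a large share of those few calls was false. With so few changed genes the adjusted threshold is stricter, so these rates may not carry over to the calls in these data. Counting error is small at these depths, and the number of libraries, 1 to 3 per group, limits the precision.

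Described in full are the immunosubunits, their partners, Psme1, Psme2, and the 5 highest and 5 lowest members in late liver. Others were named as exceptions or as examples chosen after their values were seen. The members and lists were chosen with earlier results of these data known. Paaf1 and Tf, each on a list, were not analysed here. A further list of related genes was tested and is not reported here.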

Additional observations from a re-analysis of the deposited data

Results flagged for a closer look

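Psmd4 and Psmg3 lay on opposite sides of the control mean in mid and late liver and in spleen of leukemia-bearing mice. For Psmd4, the ubiquitin receptor of the cap, all 5 mid and late liver libraries were above the control mean, by 0.07 to 1.17 on the log2 scale, and all 3 leukemia spleen libraries were below it, by 0.20, 0.57 and 0.20, so that the liver mean lay 0.834 above the spleen mean. For Psmg3, a chaperone of the alpha ring, the 5 liver libraries were 0.38 to 1.87 above and the 3 spleen libraries 0.36, 0.51 and 0.05 below, a gap of 1.35. The early liver libraries were on both sides, at 0.12 and -0.16 for Psmd4 and at 0.69 and -0.21 for Psmg3. In edgeR with the series term, the mid liver libraries were above the mid spleen library by 0.36 ± 0.27 for Psmd4 and 0.73 ± 0.40 for Psmg3, and neither passed (adjusted p = 0.716 and 0.711). All 3 spleen libraries were XC, whereas the liver means include the TG libraries mid liver 1 and late liver 1. These were at 1.04 and 1.17 for Psmd4 and at 1.87 and 1.79 for Psmg3. The XC liver libraries were at 0.07, 0.17 and 0.12 for Psmd4 and at 0.49, 0.67 and 0.38 for Psmg3. The gaps of 0.834 and 1.35 therefore mix series with tissue. The control mean also includes the TG control. With the series term mid spleen lay 0.06 ± 0.26 and 0.26 ± 0.37 above control for Psmd4 and Psmg3, so the opposite sides did not hold for that library. Several of the Psmd4 values, including 0.07, 0.12 and 0.17 in XC liver libraries, lay within the range of the controls themselves.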

How the results depend on the processing

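Of the member counts, early spleen compared with control stayed at 0 in every setting tried, and the 3 subunit ratios kept their direction in every setting tried. The size moved for 2 of them: Psmb8 to Psmb5 was -1.26 without control 1, -0.42 without control 3 and -0.37 without mid liver 1, and Psmb9 to Psmb6 was -0.52 without control 1, -0.08 without mid liver 1 and -0.01 without control 3. The early liver count was 1 without the count filter, where 1480 genes in all were called, and ranged from 0 to 24 over fits that each left out 1 library. The mid liver count (33) was 0 without the series term (1385 genes in all), 12 with day 0 controls only (2332) and 0 in the XC series alone (0). It ranged from 0 to 25 when 1 library was left out, with the 25 reached without mid liver 2 (3153 genes in all). The late liver count (38) was 20 with library totals in place of TMM factors (5645 genes in all), 13 without the series term (2693) and 0 in the XC series alone (0), and ranged from 0 to 27 when 1 library was left out. The XC series fits and the rearrangement within series were chosen after seeing the data. Early liver compared with early spleen ranged from 0 to 15. The fits without a library use fewer samples, and where they left no member called in mid or late liver they called at most 19 genes of all. The late liver calls of the named members were all lost without control 1, late liver 1 or late liver 2. The median of all genes, -0.06 in mid and -0.03 in late liver, was -0.25 and -0.32 with library totals and -0.20 in each with upper quartile factors, and the late member median was 0.74 under library totals. Psmb10 in late liver turned to -0.058 with library totals, to -0.048 without control replicate 1 and to -0.0073 in the XC series alone, and was 0.43 without control replicate 3 and 0.45 without the series term, and Psme1 turned to -0.0015 in the XC series alone. The cause of these reversals was not tested. No paired analysis was possible because the labels give no replicate numbers that the groups share. Depth limits Psmb11 and Psma8, which had few counts.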

Other observations

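The naive library made with oligo-dT priming held 23189213 counts and, like control 1, was labelled as naive cells. Over the 49 members tested its log2 CPM correlated with that of control 1 (Pearson r = 0.93 across genes, which are not independent replicates), but the median gene was 0.58 lower and 4 of 49 were higher in the oligo-dT library. With 1 library of this kind there was no replicate check.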
